A study of Mus musculus with 12 samples.

Results

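Mitochondria fuse, divide, remove their damaged parts and degrade misfolded proteins through a small set of proteins. The data described here are the transcript levels of 10 such genes in mouse hearts: Opa1, Mfn1 and Mfn2, which fuse mitochondria; Dnm1l and Fis1, which act in their division; Pink1 and Bnip3, which mark mitochondria for removal by autophagy (mitophagy); and Lonp1, Clpp and Oma1, which are proteases inside the organelle. The genes were chosen by symbol, and each matched 1 of the 25171 loci in the count table. Their counts made up between 0.143% and 0.225% of all counts of a heart.

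The study sequenced heart RNA of 12 mice, 3 in each of 4 groups, to compare hearts that express NOTCH2NLC with 98 GGC repeats with control hearts. All 4 groups carried this transgene at the Rosa26 site behind a loxP-flanked stop sequence. EIIa-tg mice (E2a in the labels) also carried EIIa-Cre, which removes the stop in all tissues, while EIIa-ctl littermates had no EIIa-Cre, and these hearts were taken at postnatal day 30. The genotype labels of EIIa-tg replicates 2 and 3 read e3a and e4a, and their titles were used. The extraction label names brain, while the tissue label is heart. Myh6-tg and Myh6-ctl mice were both labelled as carrying Myh6-creERT2, a tamoxifen-dependent Cre driven in cardiomyocytes by the Myh6 promoter. From postnatal day 60, Myh6-tg mice received 3 injections of tamoxifen in corn oil at 75 mg per kg and Myh6-ctl mice received corn oil, and these hearts were taken at postnatal day 90. The effects of tamoxifen, of activated Cre and of the transgene cannot be told apart in the Myh6 comparison, and age, Cre driver and injection cannot be told apart between the 2 models.

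Some properties of the hearts bear on every comparison below. Totals ranged from 38343106 to 50969834 counts per heart. Transcripts of the mitochondrial genome took 34.2 to 36.7% of the counts in EIIa-ctl, 28.5 to 32.4% in EIIa-tg, 31.8 to 38.3% in Myh6-ctl and 15.5 to 18.6% in Myh6-tg hearts. The summed counts of 4 Y-linked genes lay between 4224 and 7307 in replicate 1 of each group and were at most 2 in the other hearts, so the replicate number goes with the Y-linked signal. The Myh6-creERT2 line carries a Cre fused to ligand-binding domains of the mouse estrogen receptor, whose gene is Esr1. Esr1 was at 2336, 1389 and 1027 CPM in the Myh6-ctl hearts but at 1.29, 2.49 and 0.988 CPM in the Myh6-tg hearts, against 0.411 to 1.24 CPM in the 6 EIIa hearts. CPM are counts divided by library size, in the usual CPM unit, after TMM scaling over the 12 hearts. The hearts labelled Myh6-tg thus did not carry the Esr1 signal of the hearts labelled Myh6-ctl, and directions in that comparison follow the labels. The part of this difference in the results below was not tested.

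The tissue label was checked against cell type markers. Of the 8 cardiomyocyte markers, all were detected in all 12 hearts, and their lowest level was 155 CPM, for Ryr2. Their summed level was 33087 to 38508 CPM in EIIa-ctl, 18377 to 29097 in EIIa-tg, 23390 to 37997 in Myh6-ctl and 28620, 12431 and 9096 in Myh6-tg replicates 1, 2 and 3. The summed level of 7 fibroblast markers was 1328 to 1897 CPM in EIIa-ctl, 2453 to 3494 in EIIa-tg, 1760 to 2229 in Myh6-ctl and 2589, 6507 and 6710 in Myh6-tg replicates 1, 2 and 3. Myh6-tg replicate 1 therefore stood apart from the other 2 hearts of its group by both lists, and the calls of the Myh6 comparison are also given without it. The 5 adipocyte markers together reached at most 4.09 CPM. In these whole-tissue samples, fewer cells of a type and less RNA per cell cannot be told apart.

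As background, mitofusins on the outer membrane (Mfn1, Mfn2) and Opa1 on the inner membrane join mitochondria, and the dynamin-like GTPase Dnm1l pinches them apart. The kinase Pink1 gathers on depolarised mitochondria and starts their removal, and Bnip3, a receptor that is induced by low oxygen, links them to the autophagy machinery. Oma1 cleaves Opa1 on the inner membrane when the membrane potential is lost, and Lonp1 and Clpp digest proteins of the matrix. Cardiomyocytes are rich in mitochondria, and loss of mitofusins or Opa1 is known to harm the heart.

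The promoters of Bnip3 and Opa1, the 2 genes with the largest log2 fold changes in the Myh6 comparison below, and of Lonp1, which shares a motif with Bnip3, are shown with the motifs found in them. They are 250 bases before the start of each gene, from RefSeq on GRCm38.p6, and capitals mark motif matches on either strand.

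Bnip3, chr7:138909507-138909756, minus strand: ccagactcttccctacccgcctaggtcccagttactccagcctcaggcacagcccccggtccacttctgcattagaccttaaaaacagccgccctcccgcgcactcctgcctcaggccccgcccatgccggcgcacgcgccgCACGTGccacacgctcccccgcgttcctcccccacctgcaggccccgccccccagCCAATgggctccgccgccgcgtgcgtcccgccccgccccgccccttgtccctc

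Lonp1, chr17:56626904-56627153, minus strand: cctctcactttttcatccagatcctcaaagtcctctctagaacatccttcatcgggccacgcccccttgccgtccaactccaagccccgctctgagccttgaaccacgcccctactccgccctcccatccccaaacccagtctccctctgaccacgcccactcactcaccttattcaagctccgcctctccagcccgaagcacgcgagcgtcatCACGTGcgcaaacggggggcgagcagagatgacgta

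Opa1, chr16:29579084-29579333, plus strand: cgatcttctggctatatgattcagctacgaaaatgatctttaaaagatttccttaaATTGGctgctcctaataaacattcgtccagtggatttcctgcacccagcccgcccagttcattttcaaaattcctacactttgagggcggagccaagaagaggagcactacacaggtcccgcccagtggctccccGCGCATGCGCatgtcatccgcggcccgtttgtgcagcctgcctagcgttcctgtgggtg

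The RefSeq table held 14 promoters for the 10 genes, each of 250 bases before and 50 after the start, and 32851 promoters in all. CACGTG, the E-box, was in the promoters of Bnip3 and Lonp1 and in 7.15% of all promoters, and began 108 and 36 bases before the start. ACGTG, the core bound by hypoxia-inducible factors, was in 4 of the 14 and in 19.6% of all promoters. In Bnip3 and Lonp1 it lay within the E-box. The other 2 matches were the same site, held by 2 overlapping promoters of Mfn2. The NRF1 motif, bound by nuclear respiratory factor 1, was in the promoter of Opa1, 59 bases before the start, and in 0.971% of all. CCAAT was in 5 of the 14 and in 37.4% of all promoters. AAGGTCA, the estrogen-related receptor site, and TGACGTCA, the cAMP response element, were in no promoter of the 10 genes and in 4.72% and 1.79% of all promoters. These matches describe letters and not binding.

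Levels between genes were compared as FPKM, which are scaled to transcript length. In EIIa-ctl hearts Pink1 was the highest, at 172 ± 2.93 FPKM (SD, n = 3), followed by Mfn2 at 130.2 ± 13.3, Bnip3 at 81.3 ± 7.50, Fis1 at 68.5 ± 6.27 and Mfn1 at 58.2 ± 5.57. Lonp1 at 37.2 ± 1.05 and Clpp at 36.7 ± 1.03 did not differ beyond their spread, nor did Opa1 at 24.1 ± 3.21 and Dnm1l at 22.5 ± 1.77, and Oma1 was the lowest at 13.5 ± 0.411. In Myh6-tg hearts Bnip3 came first, at 320.1 ± 65.4 FPKM, above Pink1 at 99.9 ± 8.81 and Mfn2 at 95.2 ± 36.8, and Opa1 at 10.7 ± 4.30 and Oma1 at 7.52 ± 1.88 came last.

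**Figure D1:**
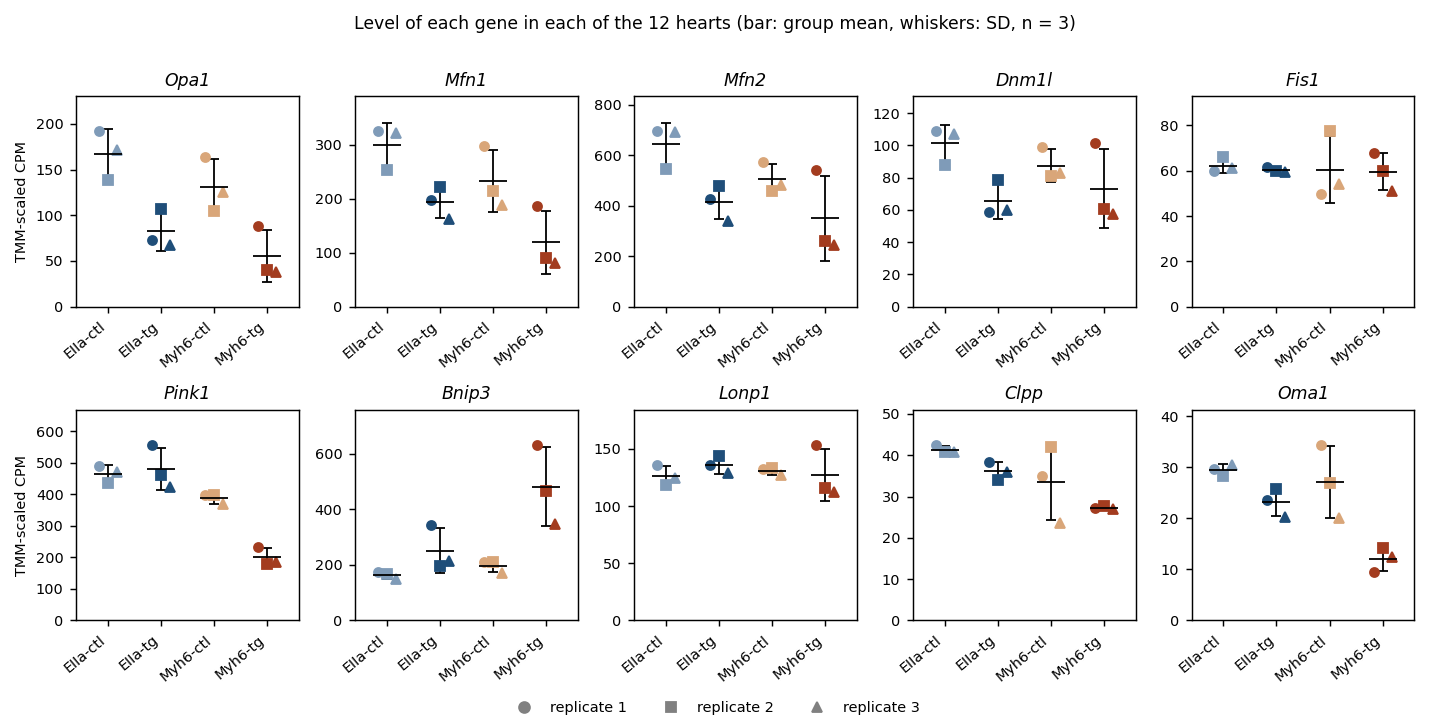
TMM-scaled CPM (vertical axis, from 0) of each of the 10 genes in the 4 groups (horizontal axis), with 1 point per heart, the marker shape giving the replicate number, a bar at the group mean and whiskers of 1 SD (n = 3). Opa1, Mfn1, Pink1 and Oma1 were lower and Bnip3 was higher in all 3 Myh6-tg hearts than in any Myh6-ctl heart. Mfn2 and Dnm1l of Myh6-tg replicate 1 lay within or above the range of the controls. The share of all genes that separated the groups in this way was not taken.

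In EIIa-tg hearts at day 30, 4 of the 10 genes were lower than in EIIa-ctl hearts and none was higher. Those 4 were the 3 fusion genes and the division GTPase Dnm1l, while Fis1, the mitophagy genes and the proteases did not pass the test. The test was edgeR's quasi-likelihood test over 14908 genes, and a gene passed at a Benjamini-Hochberg adjusted p under 0.05. The background was high: 17.0% of all genes tested passed, 8.30% of them lower and 8.65% higher. With the study's thresholds for differentially expressed genes (DEGs: at least 1 log2 unit of change in either direction with the adjusted p below 0.01), none of the 10 genes and 0% of all genes passed. The median log2 fold change was -0.26 over the 10 genes and 0.02 over all genes. DESeq2 called 5 of the 10, the same 4 lower and Bnip3 higher, and made Opa1 a DEG. Over all genes DESeq2 called 3539 of 16826, and 836 were DEGs. By edgeR 1289 genes were higher and 1238 lower, while limma on log2(FPKM + 1) gave 2361 higher and 667 lower, with a median of 0.16 over all genes, and called 6 of the 10, the same 4 lower and Bnip3 and Lonp1 higher.

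In Myh6-tg hearts at day 90, Pink1 and Oma1 were lower and Bnip3 was higher than in Myh6-ctl hearts, so 3 of the 10 genes passed. Of 15298 genes tested, 18.3% passed, 9.38% lower and 8.96% higher. None of the 10 was a DEG, against 3.97% of all genes. The median log2 fold change was -0.39 over the 10 genes and 0.03 over all genes. Same-numbered Myh6 hearts deviated together, and with the replicate number as a block Opa1 and Mfn1 also passed as lower. With it 5 of the 10 passed, 1 higher (background 9.76%) and 4 lower (background 11.2%). Of the 10, 2 were DEGs with the block, as were 969 of all 15298 genes. Opa1 stood at the threshold itself without the block, with an adjusted p of 0.050002. DESeq2 called 5 of the 10, 4 lower and 1 higher, and made 3 of them DEGs. Over all genes DESeq2 called 3873 of 17678, and 2137 were DEGs. By edgeR 1370 genes were higher and 1435 lower, while limma on log2(FPKM + 1) gave 3328 higher and 900 lower, with a median of 0.34 over all genes, and called 2 of the 10, Pink1 lower and Bnip3 higher.

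**Figure D2:**
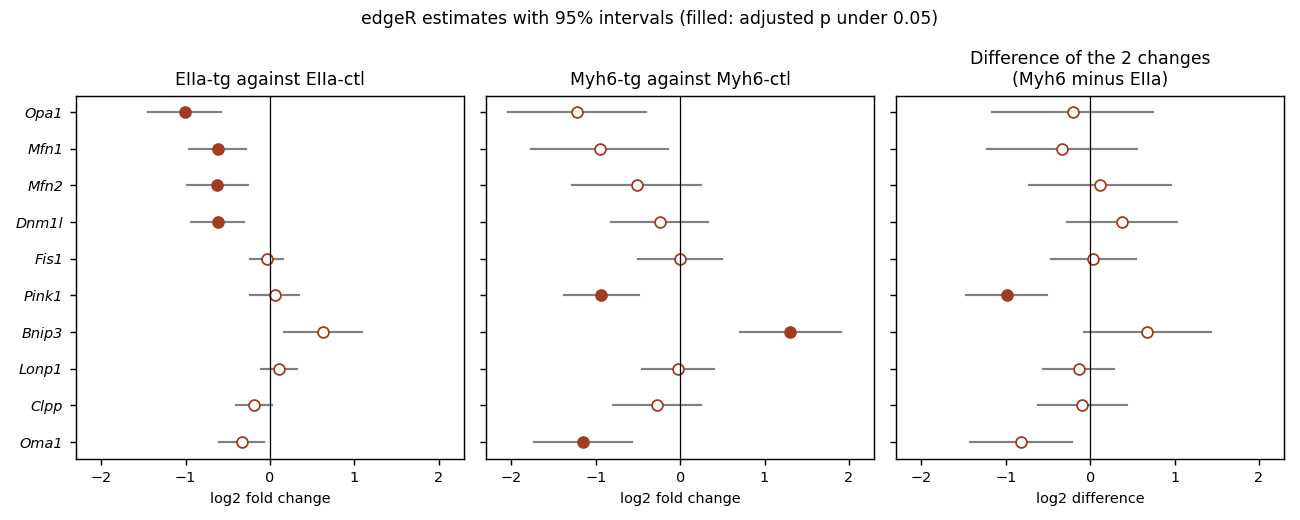
Log2 fold change (horizontal axis) of each of the 10 genes (vertical axis) as estimated by edgeR in EIIa-tg against EIIa-ctl hearts, in Myh6-tg against Myh6-ctl hearts, and the difference of these 2 changes, with lines for the 95% interval and filled points for an adjusted p under 0.05. Opa1, Mfn1, Mfn2 and Dnm1l were filled in the EIIa comparison, Pink1, Bnip3 and Oma1 in the Myh6 comparison, and Pink1 in the difference.

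Opa1 (chr16:29579334-29654884, plus strand, GENCODE M21 on GRCm38), the inner membrane fusion GTPase, had the largest fall of the 10 in the EIIa comparison. It was at 192, 138 and 171 CPM in the EIIa-ctl hearts and at 73.2, 107 and 67.3 CPM in the EIIa-tg hearts. The 2 groups did not overlap, with replicate 2 of each group nearest to the other group. Here and below, the share of all genes without overlap between 2 groups was not taken. The log2 fold change was -1.01 ± 0.19 (SE), with an adjusted p of 0.0188. Opa1 was at 164, 104 and 125 CPM in the Myh6-ctl hearts and at 88.2, 40.1 and 38.2 CPM in the Myh6-tg hearts. These groups did not overlap either, and Myh6-tg replicate 1 was the nearest to the controls. The log2 fold change of -1.22 ± 0.36 missed the threshold (adjusted p = 0.050002), and with the block it was -1.31 with an adjusted p of 0.00927.

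Mfn1 (chr3:32529465-32579239, plus strand) and Mfn2 (chr4:147873599-147904704, minus strand) are the mitofusins of the outer membrane. Mfn1 was at 324, 253 and 321 CPM in EIIa-ctl and at 198, 221 and 162 CPM in EIIa-tg hearts. Mfn2 was at 694, 546 and 690 CPM in EIIa-ctl and at 427, 478 and 339.9 CPM in EIIa-tg hearts. For both genes every EIIa-tg heart was below every EIIa-ctl heart. The log2 fold changes were -0.62 ± 0.15 for Mfn1, with an adjusted p of 0.0307, and -0.62 ± 0.16 for Mfn2, with an adjusted p of 0.0350.

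In the Myh6 groups the mitofusins separated less well. Mfn1 was at 298, 214 and 188 CPM in Myh6-ctl and at 186, 90.0 and 80.8 CPM in Myh6-tg hearts, without overlap but with Myh6-tg replicate 1 beside Myh6-ctl replicate 3. Its log2 fold change of -0.95 ± 0.35 did not pass (adjusted p = 0.0991), and with the block it was -1.03 with an adjusted p of 0.0151. Mfn2 was at 573, 459 and 481 CPM in Myh6-ctl and at 541, 261 and 246 CPM in Myh6-tg hearts, so that Myh6-tg replicate 1 lay inside the control range and the groups overlapped. Its log2 fold change of -0.51 ± 0.33 did not pass, with or without the block (adjusted p = 0.115 and 0.314), and its 95% interval ran from -1.28 to 0.25.

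The ratio of the mitofusins varied little in the EIIa hearts. On the log2 CPM scale, Mfn2 exceeded Mfn1 by 1.10, 1.11 and 1.11 in the EIIa-ctl hearts and by 1.11, 1.11 and 1.07 in the EIIa-tg hearts, where both had fallen. The difference was 0.94, 1.10 and 1.35 in the Myh6-ctl hearts and 1.54, 1.53 and 1.60 in the Myh6-tg hearts. All Myh6-tg hearts, replicate 1 included, were above all the other hearts in this difference, which is given as a description with no test.

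Dnm1l (chr16:16312230-16358959, minus strand), the GTPase that divides mitochondria, was at 109, 88.0 and 107 CPM in EIIa-ctl and at 58.6, 78.3 and 59.97 CPM in EIIa-tg hearts. The groups did not overlap, and the log2 fold change was -0.62 ± 0.14 with an adjusted p of 0.0261. In the Myh6 groups it was at 99.0, 80.9 and 82.6 CPM in control and at 101, 60.3 and 57.5 CPM in Myh6-tg hearts. Myh6-tg replicate 1 was above all 3 controls and the other 2 below them. The log2 fold change of -0.24 ± 0.25 did not pass (adjusted p = 0.538), with an interval from -0.82 to 0.33. An antisense gene shares 4.67% of its exon bases, and the counting strand is not stated in the sources used here.

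Fis1 (chr5:136953275-136966234, plus strand), an outer membrane protein of the division machinery, was at 59.7, 66.0 and 61.0 CPM in EIIa-ctl and at 61.8, 59.8 and 59.2 CPM in EIIa-tg hearts. It was at 49.8, 77.3 and 54.2 CPM in Myh6-ctl and at 67.7, 60.1 and 51.2 CPM in Myh6-tg hearts. The groups overlapped in both comparisons. The log2 fold changes were -0.04 ± 0.09 (interval -0.23 to 0.16, adjusted p = 0.782) and 0.00 ± 0.22 (interval -0.50 to 0.50, adjusted p = 0.999). In the EIIa comparison the interval of Fis1 lay above the estimates of Opa1, Mfn1, Mfn2 and Dnm1l.

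Fusion and division genes were also set against each other within each heart. The mean log2 CPM of Opa1, Mfn1 and Mfn2 exceeded the mean of Dnm1l and Fis1 by 2.12, 1.81 and 2.05 in EIIa-ctl, by 1.61, 1.71 and 1.38 in EIIa-tg, by 2.11, 1.46 and 1.75 in Myh6-ctl and by 1.32, 0.70 and 0.75 in Myh6-tg hearts. The transgenic hearts of each model were below all of their own controls. In the EIIa comparison Dnm1l fell about as far as Mfn1 and Mfn2 while Fis1 hardly moved, so the difference there rests on Opa1 and Fis1. No test was made, because the genes were chosen with results of these data known.

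Pink1 (chr4:138313409-138326307, minus strand), the mitophagy kinase, was at 489.6, 436 and 471 CPM in EIIa-ctl and at 556, 462 and 424 CPM in EIIa-tg hearts. The EIIa-tg hearts spanned the range of their controls, and the log2 fold change was 0.05 ± 0.13 (interval -0.24 to 0.35, adjusted p = 0.801). It was at 397, 397 and 368 CPM in Myh6-ctl and at 235, 179.5 and 186 CPM in Myh6-tg hearts. Here all Myh6-tg hearts, replicate 1 included, were well below all controls, with a log2 fold change of -0.93 ± 0.19 and an adjusted p of 0.0169. Of the 10 genes only Pink1 passed the test of the difference between the 2 models, with a log2 difference of -0.99 ± 0.22 and an adjusted p of 0.0267, in a test in which 3.92% of 15929 genes passed. With a replicate block in each model this adjusted p was 0.0447.

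Bnip3 (chr7:138890836-138909519, minus strand), the mitophagy receptor whose promoter with an E-box is shown above, was at 209.9, 210.4 and 170.0 CPM in Myh6-ctl and at 629.7, 464 and 348 CPM in Myh6-tg hearts. All Myh6-tg hearts were above all controls, and replicate 1 was the highest. The log2 fold change was 1.31 ± 0.26 with an adjusted p of 0.0153. It was at 173, 169 and 148 CPM in EIIa-ctl and at 343, 196 and 214 CPM in EIIa-tg hearts. These groups did not overlap, but replicate 1 alone was far above the rest, and the log2 fold change of 0.63 ± 0.20 missed the threshold (adjusted p = 0.0663; DESeq2 0.0112). The difference between the models, 0.67 ± 0.35, did not pass (adjusted p = 0.314). An antisense gene that is not listed in the count table shares 22.3% of the exon bases of Bnip3, and without a stated strand its reads cannot be told apart from those of Bnip3.

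The balance of the 2 mitophagy genes turned over in the Myh6-tg hearts. On the log2 CPM scale Bnip3 was below Pink1 in all 9 hearts of the other groups, by a difference of -1.67 to -1.37 in EIIa-ctl, -1.24 to -0.70 in EIIa-tg and -1.11 to -0.91 in Myh6-ctl hearts. It was above Pink1 by 1.42, 1.37 and 0.90 in the 3 Myh6-tg hearts.

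Oma1 (chr4:103313812-103371868, plus strand), the inner membrane protease that cleaves Opa1, was at 34.3, 27.0 and 20.1 CPM in Myh6-ctl and at 9.51, 14.1 and 12.4 CPM in Myh6-tg hearts. The groups did not overlap, and the lowest value was that of Myh6-tg replicate 1. The log2 fold change was -1.15 ± 0.25 with an adjusted p of 0.0202. It was at 29.6, 28.2 and 30.6 CPM in EIIa-ctl and at 23.7, 25.7 and 20.4 CPM in EIIa-tg hearts, without overlap, and the log2 fold change of -0.34 ± 0.12 did not pass (adjusted p = 0.0779). The difference between the models, -0.82 ± 0.28, did not pass either (adjusted p = 0.128).

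Opa1 and its protease did not keep a fixed ratio. On the log2 CPM scale Opa1 exceeded Oma1 by 2.69, 2.29 and 2.49 in EIIa-ctl and by 1.63, 2.06 and 1.72 in EIIa-tg hearts, without overlap. It did so by 2.25, 1.95 and 2.63 in Myh6-ctl hearts, and by 3.21, 1.50 and 1.61 in Myh6-tg replicates 1, 2 and 3, which lay on either side of the controls.

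Neither matrix protease passed the edgeR test in either comparison. Lonp1 (chr17:56614297-56626887, minus strand) was at 136, 119 and 125 CPM in EIIa-ctl, 136, 144 and 129 in EIIa-tg, 132, 133 and 127 in Myh6-ctl and 153, 116 and 112 in Myh6-tg hearts, with overlap in both comparisons. Its log2 fold changes were 0.11 ± 0.09 (interval -0.10 to 0.33, adjusted p = 0.431) and -0.02 ± 0.18 (interval -0.45 to 0.40, adjusted p = 0.947). Its promoter, shown above, holds the same E-box as that of Bnip3.

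Clpp (chr17:56990305-56996188, plus strand), the proteolytic subunit of the ClpXP protease, was at 42.4, 40.7 and 40.7 CPM in EIIa-ctl and at 38.3, 34.1 and 36.0 CPM in EIIa-tg hearts. These did not overlap, but the log2 fold change of -0.19 ± 0.09 did not pass (adjusted p = 0.190). It was at 34.9, 42.1 and 23.6 CPM in Myh6-ctl and at 27.2, 27.7 and 27.1 CPM in Myh6-tg hearts. The 3 Myh6-tg hearts were close together within the wide range of their controls, and the log2 fold change was -0.27 ± 0.22 (interval -0.79 to 0.24, adjusted p = 0.429).

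The 2 control groups were compared to give the levels without the transgene's expression. None of the 10 genes passed, in a comparison in which 5 of 14990 genes (0.0334%) passed; with edgeR none of the 10 had an unadjusted p under 0.05, and DESeq2 also called none, with 1 at an unadjusted p under 0.05. The log2 differences, Myh6-ctl against EIIa-ctl, ran from -0.35 for Mfn1 to 0.28 for Bnip3. The interval of Mfn2, from -0.71 to 0.04, was among those that reached farthest from 0.

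**Figure D3:**
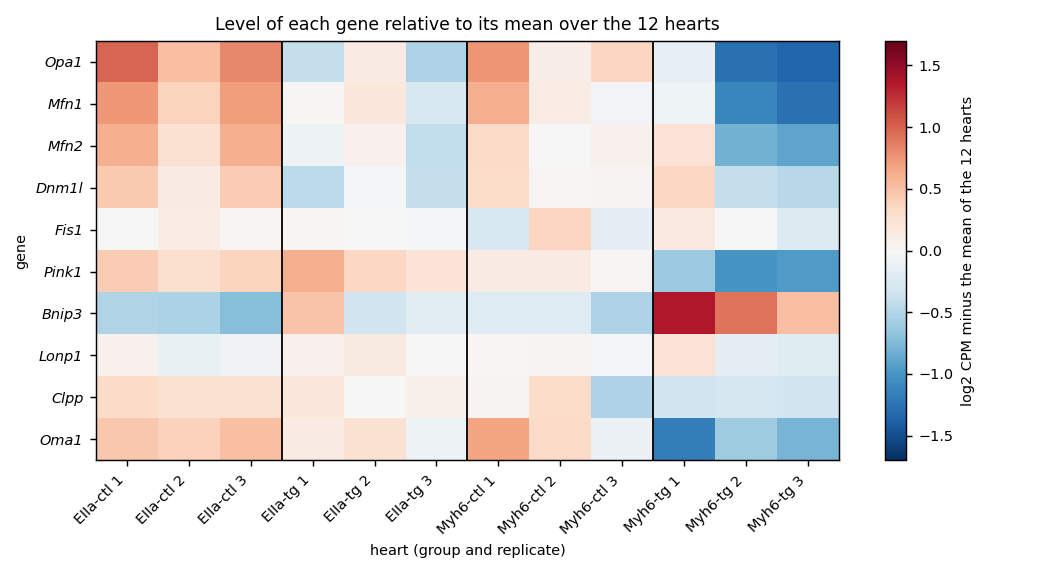
Log2 CPM of each of the 10 genes (rows) in each of the 12 hearts (columns, by group and replicate) minus the gene's mean over the 12 hearts, in colour from blue (lower) to red (higher). The columns of Myh6-tg replicates 2 and 3 were blue for Opa1, Mfn1, Mfn2 and Pink1 and red for Bnip3, while replicate 1 shared the colours of Pink1, Bnip3 and Oma1 but not those of Mfn2 and Dnm1l.

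Single hearts decided several of these calls. In the EIIa comparison none of the 10 genes passed without EIIa-ctl replicate 1, EIIa-ctl replicate 3, EIIa-tg replicate 1 or EIIa-tg replicate 3. In those edgeR fits 4 to 6 of them had an unadjusted p under 0.05, as had 3798 to 4173 of the 15171 to 15380 genes tested. Without EIIa-ctl replicate 2, 4 passed, as did 1794 of all 15358 genes. Without EIIa-tg replicate 2, 6 passed, as did 4079 of all 15310 genes. The estimates moved less: over the 6 fits, the log2 fold change of Opa1 ran from -1.24 to -0.88, that of Mfn1 from -0.73 to -0.50, that of Mfn2 from -0.74 to -0.50 and that of Dnm1l from -0.77 to -0.55. In these fits the number of all genes passing also moved, from 0 to 4079.

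In the Myh6 comparison none of the 10 passed without Myh6-ctl replicate 1 or Myh6-tg replicate 2, while 798 of 15931 and 982 of 15753 genes did. In each of these fits 4 of the 10 had an unadjusted p under 0.05, as had 4117 and 4083 of all genes. Without Myh6-tg replicate 3, 1 of the 10 passed, as did 969 of all 15713 genes. Without Myh6-ctl replicate 2 or 3, 2 passed, as did 1755 of 15921 and 1637 of 15863 genes. Myh6-tg replicate 1 was the only Myh6-tg heart with the Y-linked signal (7307 counts). Leaving it out kept that signal in Myh6-ctl replicate 1 (5245 counts) alone, so the groups then differed in it. Without Myh6-tg replicate 1, 7 of the 10 passed: Bnip3 higher and Opa1, Mfn1, Mfn2, Dnm1l, Pink1 and Oma1 lower. Of these, 4 were DEGs, in a fit in which 26.7% of all 15967 genes passed and 1690 were DEGs. Opa1 then had a log2 fold change of -1.73 with an adjusted p of 0.00255 and Mfn1 of -1.43 with an adjusted p of 0.00560. Dnm1l had a log2 fold change of -0.56 with an adjusted p of 0.0412 and Mfn2 of -0.98 with an adjusted p of 0.0101. The estimates ran from -1.07 to -0.86 for Pink1, from 1.06 to 1.49 for Bnip3 and from -1.34 to -0.95 for Oma1 over the 6 fits. The call of Pink1 between the models was lost without any of EIIa-ctl replicates 1, 2 and 3, EIIa-tg replicates 1 and 2, Myh6-ctl replicate 1 and Myh6-tg replicates 2 and 3, with adjusted p of up to 0.0809 and log2 differences from -1.13 to -0.87.

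The level of cardiomyocyte markers moved with these genes to differing degrees. Over the 12 hearts, which share the group differences, Pearson's r with the log2 marker sum was 0.93 for Mfn2 and Mfn1, 0.91 for Opa1 and 0.84 for Dnm1l. It was 0.68 for Pink1, 0.65 for Oma1, 0.60 for Clpp, 0.55 for Lonp1, 0.45 for Fis1 and -0.55 for Bnip3. In the EIIa comparison 2 of the 8 markers fell (Ryr2 and Myl3), and in the Myh6 comparison 4 fell (Tnni3, Pln, Myl2 and Myl3). Of all genes, 8.30% and 9.38% were lower. In the Myh6 comparison Tnnt2 and Tnnc1 had log2 fold changes of 0.44 and 0.03 that did not pass, so the sum does not stand for all 8 markers alike. Of the other cell types, 2 of 7 fibroblast markers and all 6 macrophage markers rose and 3 of 6 endothelial markers fell in the EIIa comparison. In the Myh6 comparison 3 of 7 fibroblast markers rose. Of all genes, 8.65% and 8.96% were higher. The fibroblast marker Lum was at -0.79 in the Myh6 comparison, which did not pass (adjusted p = 0.198) but passed as lower with the block (adjusted p = 0.0218). Relative to the marker sum of the same heart, a scale chosen after seeing the data, log2 values of Mfn2 ran from -5.92 to -5.63 in EIIa-ctl and from -5.93 to -5.52 in EIIa-tg hearts, those of Mfn1 from -7.03 to -6.73 and from -7.04 to -6.63, and those of Dnm1l from -8.55 to -8.31 and from -8.54 to -8.26, so these groups overlapped. Opa1 stayed apart on that scale, from -7.90 to -7.49 in EIIa-ctl and from -8.09 to -8.06 in EIIa-tg hearts. The marker sum itself was lower in every EIIa-tg heart than in any EIIa-ctl heart, so a gene with unchanged CPM came out higher on this scale. Other genes were higher on it in every EIIa-tg heart than in any EIIa-ctl heart. The share of all genes that were so was not taken. Pink1 ran from -6.35 to -6.13 in EIIa-ctl and from -5.98 to -5.14 in EIIa-tg hearts, Fis1 from -9.30 to -8.97 and from -8.92 to -8.28, Bnip3 from -8.02 to -7.62 and from -7.22 to -5.84, and Lonp1 from -8.27 to -7.98 and from -7.66 to -7.16. Oma1, lower in CPM in every EIIa-tg heart, was higher in each of them on this scale, from -10.30 to -10.18 and from -10.14 to -9.69. Clpp overlapped, from -9.88 to -9.66 and from -9.74 to -8.99.

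In the Myh6 groups the same scale gave another order. The marker sum of Myh6-tg replicates 2 and 3 was lower than in any Myh6-ctl heart, so a gene with unchanged CPM came out higher in these hearts. Bnip3 stayed apart, from -7.50 to -7.10 in Myh6-ctl and from -5.51 to -4.71 in Myh6-tg hearts. Fis1 was also higher in every Myh6-tg heart, from -9.34 to -8.75 and from -8.72 to -7.47. Mean values of Dnm1l (-8.46 and -7.71), Lonp1 (-7.87 and -6.88), Clpp (-9.87 and -9.08) and Mfn2 (-5.93 and -5.50) were higher in Myh6-tg hearts, and those of Mfn1 were -7.06 in both groups. Pink1 ran from -6.58 to -5.99 and from -6.93 to -5.61, Oma1 from -10.46 to -9.88 and from -11.55 to -9.51, and Opa1 from -8.51 to -7.55 and from -8.34 to -7.89, with overlap. The cardiomyocyte marker sum of Myh6-tg replicate 1 was within the control range. Its fibroblast and macrophage marker sums, 2589 and 884 CPM, were above those of all Myh6-ctl hearts, which reached at most 2229 and 491 CPM. In this heart Opa1, Mfn1, Pink1 and Oma1 were below and Dnm1l, Bnip3 and Lonp1 above all Myh6-ctl hearts in CPM. The part of cell composition in the results was not tested.

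**Figure D4:**
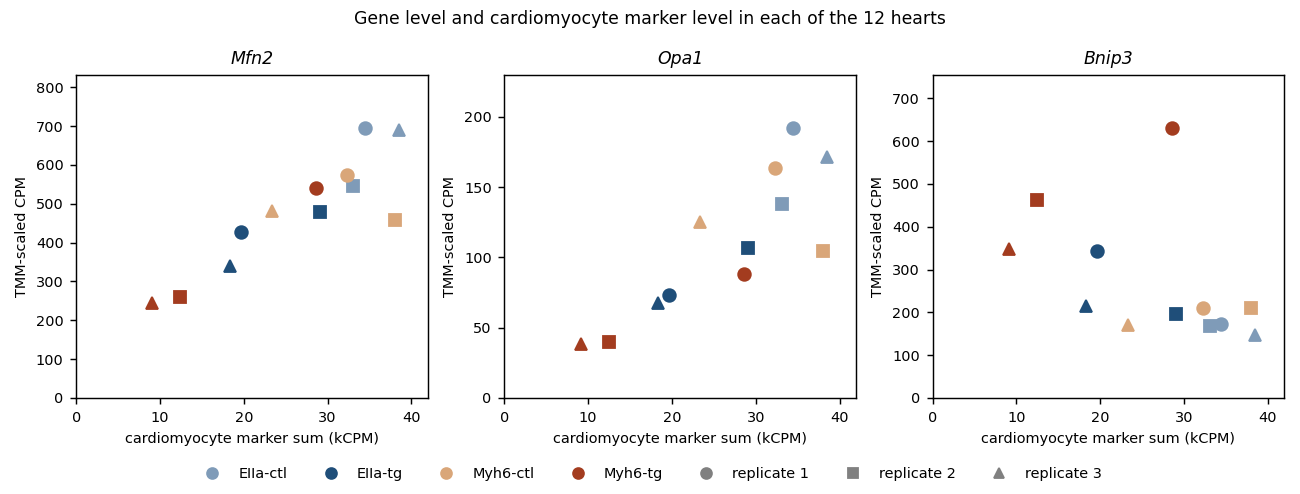
TMM-scaled CPM of Mfn2, Opa1 and Bnip3 (vertical axes, from 0) against the summed CPM of the 8 cardiomyocyte markers (horizontal axis, in units of kCPM), 1 point per heart, with colours for groups and marker shapes for replicate numbers. Mfn2 and Opa1 rose with the marker sum over the 12 hearts, with the lowest values in Myh6-tg replicates 2 and 3, while Bnip3 was highest in Myh6-tg replicate 1, whose marker sum was 28620 CPM.

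Some of the genes also varied together between hearts of the same group. Over the 12 hearts Pearson's r of log2 CPM was 0.96 for each pair of Opa1, Mfn1 and Mfn2 and 0.91 for Dnm1l with Mfn2. After each group's mean was subtracted, r among Opa1, Mfn1, Mfn2, Dnm1l and Lonp1 lay between 0.89 and 0.98. With these genes, r of Pink1 and Bnip3 then ran from 0.31 to 0.78, and that of Fis1, Clpp and Oma1 from -0.27 to 0.39. Fis1 reached at most 0.44 with any of the others over the 12 hearts. Bnip3 went against Oma1 at -0.85 over the 12 hearts, but their r within groups was -0.08. These values are descriptions over 12 hearts that share depth and scaling.

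The genes whose log2 CPM followed each of the 10 most closely over the 12 hearts were taken from 10193 candidates. For Opa1 they included R3hdm2 and Rap1gap2, both at r = 0.988. For Mfn1 they were Pdhx, a component of the pyruvate dehydrogenase complex, at 0.993, Lrrc20 and Hfe2, both at 0.991, and for Mfn2 they were the ubiquitin ligase Rnf123 at 0.982, Def8 at 0.981 and Foxred1, a complex I assembly factor, at 0.980. Dnm1l was followed by Pmpca, a subunit of the mitochondrial processing peptidase, at 0.976, Paip2b at 0.972 and Lactb2 at 0.967, and Fis1 by Eif3i at 0.936, Mrps18c at 0.916 and Sys1 at 0.908.

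Pink1 was followed by 2 enzymes of fatty acid oxidation, Cpt1b at 0.983 and Acadvl at 0.982, and by Dhrs4 at 0.979. Oma1 was followed by Ndufaf4, a complex I assembly factor, at 0.984 and by Wdr92 and Fitm2, both at 0.977. Bnip3 was followed by Dhx32 at 0.961 and by Tbc1d15 and Lcn2, both at 0.958. Clpp was followed by Leng1 at 0.942, Lyrm4 at 0.933 and Ppp2r3d at 0.932. Lonp1, which had the lowest values of the 10, was followed by Mark4 at 0.901, Snx32 at 0.890 and Cyp39a1 at 0.885.

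A further 100 genes in 7 lists covered the rest of this machinery. In the EIIa comparison 17 of the 96 tested fell and 2 rose, with a median log2 fold change of -0.24, against 8.30% and 8.65% of all genes and a median of 0.02. In the Myh6 comparison 24 of the 97 tested fell and 3 rose, with a median of -0.51, against 9.38% and 8.96% of all genes and a median of 0.03. With the block 31 fell and 2 rose, against 11.2% and 9.76% of all genes. The EIIa count fallen rose to 40 when EIIa-tg replicate 2 was left out, was 12 for EIIa-ctl replicate 2, and was 0 when any other EIIa heart was left out. In the Myh6 comparison 9 fell without Myh6-ctl replicate 1 or Myh6-tg replicate 3, 10 without Myh6-tg replicate 2, 15 without Myh6-ctl replicate 2, 20 without Myh6-ctl replicate 3 and 41 without Myh6-tg replicate 1. The genes named below as changed in the Myh6 comparison passed in the same direction without Myh6-tg replicate 1. 

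**Figure D5:**
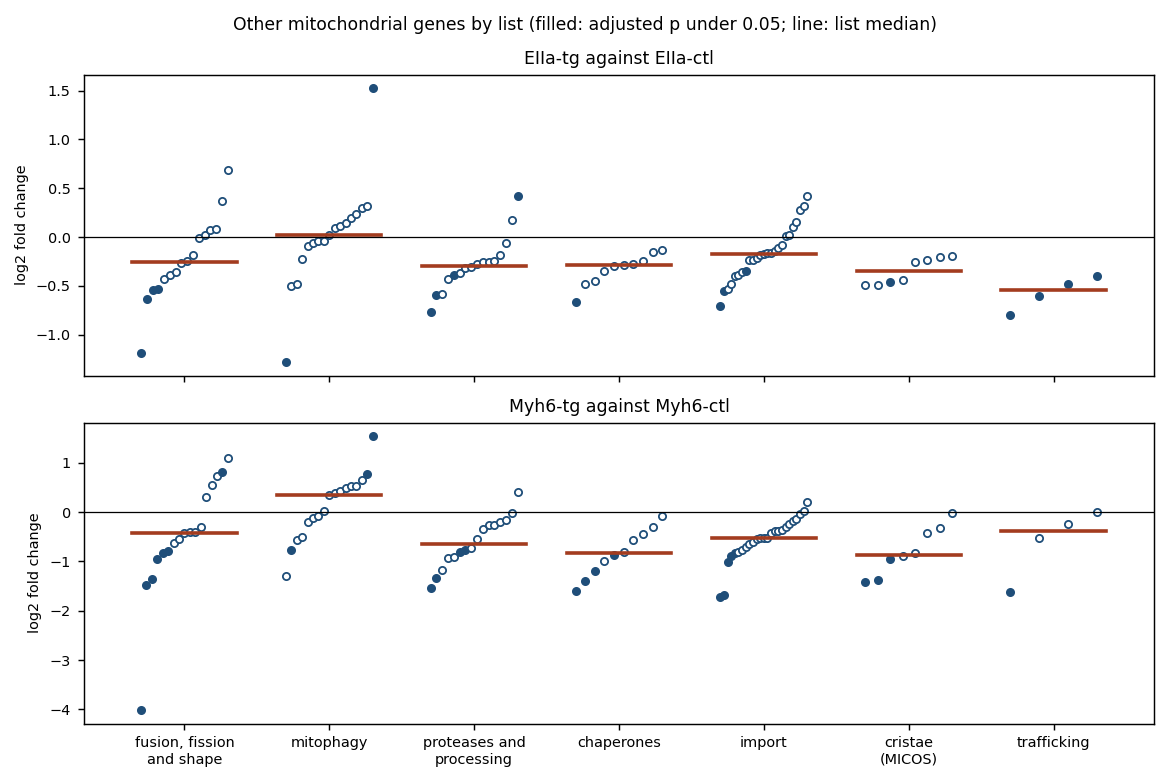
Log2 fold change (vertical axis) of the tested genes of 7 mitochondrial lists (horizontal axis; the 10 genes described above are left out) in the EIIa comparison (upper panel) and the Myh6 comparison (lower panel), with filled points for an adjusted p under 0.05 and a line at each list's median. Medians were below 0 in all lists but mitophagy, where they were 0.02 and 0.34, and Mtfp1 was the lowest point of the lower panel at -4.01.

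Among other genes of fusion, division and mitochondrial shape, 4 of 16 fell in the EIIa comparison and 6 of 17 fell and 1 rose in the Myh6 comparison. Of all genes, 8.30% were lower in the EIIa comparison, and 9.38% were lower and 8.96% higher in the Myh6 comparison. Mtfp1, an inner membrane protein of the division process, was at 111, 101 and 119.7 CPM in EIIa-ctl, 43.2, 71.9 and 29.8 in EIIa-tg, 96.8, 77.1 and 57.1 in Myh6-ctl and 6.24, 4.75 and 3.11 in Myh6-tg hearts. No transgenic heart reached the range of its controls. Its log2 fold changes were -1.19 ± 0.27 (adjusted p = 0.0281) and -4.01 ± 0.33 (adjusted p = 0.00134). Mtfr1 fell by 1.35 on the log2 scale in the Myh6 comparison (adjusted p = 0.00854), and Slc25a46, an outer membrane protein, fell by 0.53 in the EIIa comparison (adjusted p = 0.0284).

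Of 17 other mitophagy genes, 1 rose and 1 fell in the EIIa comparison and 2 rose and 1 fell in the Myh6 comparison, counts near the shares of all genes, which were 8.65% higher and 8.30% lower and 8.96% higher and 9.38% lower. Sqstm1, which encodes the autophagy adaptor p62, rose in both, by a log2 fold change of 1.52 ± 0.18 (adjusted p = 0.0135) and of 1.54 ± 0.31 (adjusted p = 0.0165). Optn, another autophagy adaptor, fell by 1.28 in the EIIa comparison (adjusted p = 0.0227), with a log2 fold change of -0.56 that did not pass in the Myh6 comparison (adjusted p = 0.621) but was -1.91 without Myh6-tg replicate 1 (adjusted p = 0.0137). Fundc1, a mitophagy receptor of the outer membrane, fell by 0.76 in the Myh6 comparison (adjusted p = 0.0163).

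Of 16 other proteases and processing enzymes, 3 fell and 1 rose in the EIIa comparison and 4 fell in the Myh6 comparison. The shares of all genes were 8.30% lower and 8.65% higher in the EIIa comparison and 9.38% lower in the Myh6 comparison. Pmpcb, the catalytic subunit of the processing peptidase, and Yme1l1, the inner membrane protease that also cleaves Opa1, fell by 0.77 and 0.39 in the EIIa comparison (adjusted p = 0.0262 and 0.0311). Immp1l and Mipep, peptidases that trim imported proteins, fell by 1.34 and 1.54 in the Myh6 comparison (adjusted p = 0.00394 and 0.00711).

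Of 10 chaperone genes, 1 fell in the EIIa comparison and 4 in the Myh6 comparison, and none rose in either. The EIIa count was near the share of all genes that were lower, 8.30%, and that share was 9.38% in the Myh6 comparison. Hspd1, the matrix chaperonin, was at 402, 355 and 369.8 CPM in EIIa-ctl, 311, 321 and 249.9 in EIIa-tg, 371, 327 and 313 in Myh6-ctl and 105, 119.97 and 103 in Myh6-tg hearts. The 3 Myh6-tg hearts were close to each other and far below the rest, with a log2 fold change of -1.61 ± 0.18 and an adjusted p of 0.00320, while -0.35 ± 0.12 in the EIIa comparison did not pass (adjusted p = 0.0863). Dnaja3, a matrix co-chaperone, fell in both comparisons, by 0.66 (adjusted p = 0.0270) and 1.39 (adjusted p = 0.00502).

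For the lists that follow, 8.30% of all genes were lower in the EIIa comparison and 9.38% in the Myh6 comparison. The EIIa counts of import and cristae genes were near that share. Of 25 import genes, 3 fell in the EIIa comparison, among them Timm44 by 0.71 (adjusted p = 0.0168) and Samm50 by 0.55 (adjusted p = 0.0388). In the Myh6 comparison 5 fell, among them Tomm5 by 1.73 (adjusted p = 0.00515) and Timm21 by 1.67 (adjusted p = 0.00473). Of 8 genes of the cristae (MICOS), Micos13 fell by 0.46 in the EIIa comparison (adjusted p = 0.0368), and 3 fell in the Myh6 comparison, among them Apoo by 1.38 (adjusted p = 0.0259) and Micos10 by 0.95 (adjusted p = 0.0268). All 4 trafficking genes fell in the EIIa comparison, among them the outer membrane GTPase Rhot2 by 0.80 (adjusted p = 0.0316) and the motor adaptor Trak2 by 0.60 (adjusted p = 0.0269). In the Myh6 comparison Rhot2 alone of these 4 fell, by 1.63 (adjusted p = 0.0157), and the estimate for Trak2 was 0.00 on the log2 scale (adjusted p = 0.998).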

How the data were processed

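Heart RNA of 12 mice (4 groups of 3) was sequenced. The authors deposited counts per locus and FPKM per locus; their processing notes name HISAT2 2.0.4, StringTie 2.2.1 and DESeq2, and list both GRCm39 and mm10, while the methods state GRCm38. Counting strand was not given in the sources used here. The 10 genes, the lists and the tests were chosen with earlier results of these data known. Counts were tested with edgeR 4.0.16 (R 4.3.3; TMM, filterByExpr, quasi-likelihood) on the 6 hearts of each comparison, and the difference between models over 12 hearts; p-values were Benjamini-Hochberg adjusted over all genes. DESeq2 1.42.0 and limma 3.58.1 on log2(FPKM + 1), at least 0.5 FPKM in 3 hearts, were alternatives. Printed CPM use TMM factors over 12 hearts, and log2 CPM a prior count of 2. Scripts were tested on simulated counts.

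Totals of 38343106 to 50969834 counts per heart limit precision for low genes. Deviations of same-numbered hearts from their group means correlated at 0.28, 0.18 and 0.17 between the Myh6 groups over 15994 genes. The main Myh6 fits had no block, and fits with the replicate number as a block are given beside them. The replicate numbers come from the labels, which do not say what same-numbered hearts share. Named genes were the 10, up to 2 genes of each mitochondrial list with the lowest p among those passing in each transgene comparison, the 3 genes most correlated with each of the 10 among genes with a mean CPM of at least 5, and Esr1. A correlated gene of Opa1 is not reported here. Positions come from GENCODE M21, and promoters from RefSeq on GRCm38.p6.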

Additional observations from a re-analysis of the deposited data

Results flagged for a closer look

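The change in Myh6-tg hearts differed from the change in EIIa-tg hearts for 7 of the genes described, by edgeR's test of the difference over 12 hearts. Of the 10 genes this was Pink1, the mitophagy kinase, with a log2 difference of -0.99 ± 0.22 (SE; adjusted p = 0.0267). Among the other mitochondrial genes named, the difference was -2.83 ± 0.45 for Mtfp1 (adjusted p = 0.00784), -1.26 ± 0.20 for Hspd1 (adjusted p = 0.00785) and -1.09 ± 0.20 for Immp1l (adjusted p = 0.0137). It was -1.33 ± 0.29 for Tomm5 (adjusted p = 0.0248), -1.24 ± 0.27 for Mipep (adjusted p = 0.0249) and -1.15 ± 0.27 for Timm21 (adjusted p = 0.0376). With a replicate block in each model the call of Timm21 was lost (adjusted p = 0.0759), and the others passed. Without Myh6-tg replicate 1 all 7 passed, an alternative chosen after seeing the data, in which 1727 of all 16337 genes passed. Over the 12 fits that each left out 1 heart, Pink1 passed in 4. For the other genes no other fit of that kind is given here. All 7 differences were negative, so the change was lower in the Myh6 comparison. With all 12 hearts and no block, 3.92% of 15929 genes passed this test. Of 97 other mitochondrial genes tested, 7 passed, all as lower. They included Timm8b (-0.94, adjusted p = 0.0273), which the naming rule did not select. The genes named here other than Pink1 had been selected for passing as lower in the Myh6 comparison, which favours a negative difference. The models differ in age, Cre driver and injection, which cannot be told apart here.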

How the results depend on the processing

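The EIIa count of 4 genes passing became 0 with all 12 hearts in 1 fit, 0 with the replicate block and 0 with limma on log2(FPKM + 1) without a filter, and ran from 0 to 6 when 1 heart was left out. The number of DEGs among the 10 was 1 instead of 0 with DESeq2 and without a filter on low counts, and 0 to 1 when 1 heart was left out. The Myh6 count of 3 ran from 0 to 7 when 1 heart was left out and was 2 in each of the 3 limma fits. It was 4, 1 higher and 3 lower, with RLE in place of TMM factors and without a filter on low counts. The same 4 was reached with a filter of at least 1 CPM in at least 3 hearts and with a bias-adjusted quasi-likelihood. It was also 4 without the genes of the mitochondrial genome and without the unannotated loci. The count became 5 with DESeq2, with all 12 hearts, with the replicate block and with replicate 1 against 2 and 3 as a covariate. DEGs among the 10 were then 3, 2, 2 and 3 instead of 0, 1 in each of the 3 limma fits, and 0 to 4 when 1 heart was left out. The count of 1 for the difference between models ran from 0 to 1. The cause of these changes was not tested.

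On the log2(FPKM) scales, Fis1 and Clpp turned to 0.14 and 0.01 in the EIIa comparison, Dnm1l, Lonp1 and Clpp to 0.11, 0.32 (0.33 with a pseudocount of 0.1) and 0.16 in the Myh6 comparison, and Lonp1 and Clpp to 0.02 and 0.15 in the difference between models. None of these had passed the edgeR test. When 1 heart was left out, log2 values changed sign for Pink1 in the EIIa comparison (-0.07 to 0.14), Lonp1 (-0.18 to 0.06) and Fis1 (-0.12 to 0.21) in the Myh6 comparison, Opa1 (-0.72 to 0.01), Mfn2 (-0.36 to 0.30), Fis1 (-0.09 to 0.25) and Clpp (-0.30 to 0.10) in the difference between models, and Fis1 (-0.24 to 0.09) and Oma1 (-0.32 to 0.07) between the controls.

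Over all genes, the EIIa count of 2527 was 227 with all 12 hearts, 1 with the replicate block, 1680 with the covariate and 0 to 4079 when 1 heart was left out. The Myh6 count of 2805 was 5049 with all 12 hearts, 4228 and 4190 with limma (pseudocounts of 1 and 0.1) and 798 to 4269 when 1 heart was left out. DEGs numbered 836 with DESeq2 and 344 without a filter instead of 0 in the EIIa comparison, and 2137 with DESeq2, 1857 with all 12 hearts, 969 with the block and 1249 with the covariate instead of 608 in the Myh6 comparison. The difference between models gave 1396 with DESeq2 instead of 624, and the controls 429 with DESeq2, 65 without a filter and 27 with the block instead of 5. The 17 other mitochondrial genes that fell in the EIIa comparison were 0 with the block and 29 with DESeq2. Same-numbered EIIa hearts correlated at 0.05, -0.07 and -0.06, and the main EIIa fit had no block either. The block changed no other call of the 10 genes in the Myh6 comparison than those of Opa1 and Mfn1. With 3 hearts a group, the intervals limit what can be said of genes that did not pass.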
